A study of Mus musculus with 12 samples.

Results

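Cebpb, Cebpd, Cebpa, Cebpg and Ddit3, 5 genes of the CCAAT/enhancer binding protein (C/EBP) family of transcription factors, were followed in mouse hippocampus after pilocarpine. They were taken by gene symbol from the platform annotation of the arrays, with the probe set of the highest mean over all arrays standing for a gene. All 5 were found, each with 1 probe set, among 19938 genes that have a probe set of their own.

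Hippocampal RNA of 12 adult mice of 7 to 10 weeks was hybridised to Affymetrix Mouse Gene ST arrays, 1 array per mouse, with 3 mice in each of 4 groups. All mice, controls included, carried the tamoxifen-inducible CaMKCreERT2 transgene, whose Camk2a promoter is active in forebrain glutamatergic neurons, and all received tamoxifen. Heterozygous mice kept an intact Srf allele beside a floxed one, and Srf mutants had floxed alleles only. Srf encodes serum response factor, a transcription factor of activity-induced genes.
The groups were heterozygous mice killed after 40 min of status epilepticus (SE), a seizure that does not end by itself, which followed 335 or 350 mg/kg of the muscarinic agonist pilocarpine; heterozygous controls without it; Srf mutants that had seizures after pilocarpine but did not reach SE; and Srf mutant controls. The labels give Ringer solution to the controls, call the heterozygous mice wild type, and call the injected mutants mice with seizure; the study's text was followed for heterozygosity and for the lack of SE. The heterozygous controls are thus no wild-type mice, and mutants that reached SE were not analysed here. When the injected mutants were killed is not given in the sources used here, so that genotype, SE and harvest time cannot be told apart between the injected groups.

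C/EBP proteins bind DNA as dimers through a basic region and a leucine zipper, and combine with each other and with zipper proteins of the ATF, Fos and Jun families. C/EBPβ and C/EBPδ are known as rapidly induced factors of cytokine, cAMP and calcium signalling, C/EBPα as a factor of differentiation and growth arrest in liver, fat and myeloid cells. C/EBPγ lacks a classical activation domain and acts as a dimer partner, and CHOP, the product of Ddit3, is induced by ATF4 in the integrated stress response and draws its partners away from the usual C/EBP sites.

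The promoters of the 3 members whose level was called different in SE are printed to show how their start regions differ. Each is the RefSeq window (GRCm38.p6) of 250 bases before to 50 bases after the annotated start, 300 bases in all, 5′ to 3′ on the gene's strand. Capitals mark the letters TGACG, the half-site of the cAMP response element (CRE), the letters TATAAA, and CCAAT, each searched on both strands, so that they read CGTCA and ATTGG where they lie on the other strand. Cebpb lies at chr2:167688665-167688964 on the plus strand, Cebpa at chr7:35119043-35119342 on the plus strand, and Cebpg at chr7:35056517-35056816 on the minus strand.
Cebpb: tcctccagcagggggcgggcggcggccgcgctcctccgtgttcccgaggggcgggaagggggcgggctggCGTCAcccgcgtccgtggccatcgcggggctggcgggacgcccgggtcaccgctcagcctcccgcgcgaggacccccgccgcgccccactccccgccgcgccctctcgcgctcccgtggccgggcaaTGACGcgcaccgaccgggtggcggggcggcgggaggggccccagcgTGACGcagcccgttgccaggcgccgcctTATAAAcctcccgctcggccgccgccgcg
Cebpa: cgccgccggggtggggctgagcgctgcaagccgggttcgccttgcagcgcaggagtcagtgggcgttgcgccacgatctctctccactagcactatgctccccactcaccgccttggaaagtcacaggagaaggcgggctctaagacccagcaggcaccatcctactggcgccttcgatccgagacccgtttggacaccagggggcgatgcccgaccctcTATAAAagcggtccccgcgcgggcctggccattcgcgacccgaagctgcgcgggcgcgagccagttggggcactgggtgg
Cebpg: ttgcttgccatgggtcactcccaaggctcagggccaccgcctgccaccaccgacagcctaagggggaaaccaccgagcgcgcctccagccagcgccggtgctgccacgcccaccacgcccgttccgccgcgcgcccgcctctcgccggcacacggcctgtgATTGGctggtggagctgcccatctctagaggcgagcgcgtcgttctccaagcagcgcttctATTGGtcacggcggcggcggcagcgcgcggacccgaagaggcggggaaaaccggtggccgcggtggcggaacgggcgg
The Cebpb window held 3 CRE half-sites, which begin at -180, -53 and -7 from the start, and a TATAAA at 22 after it. Of all 32851 promoter windows in the table, 20.8% held at least 1 such half-site and 5.01% held 2 or more. The Cebpa window held no half-site and a TATAAA at -30, a motif of 13.6% of windows. The Cebpg window held neither, but CCAAT on the opposite strand at -89 and -28, a motif of 37.4% of windows. A search of the Ddit3 window found an AP-1 site (TGACTCA, 5.2% of windows) at -242 and CCAAT on the opposite strand at -77. Windows of 4 of the 5 members were searched, and the promoter of Cebpd was not analysed here. None of the 4 held the full CRE TGACGTCA (1.79% of windows), the C/EBP-ATF composite TGATGCAA (0.895%), the C/EBP palindrome TTGCGCAA (0.183%) or the CArG box through which SRF binds (1.63%). GC content was 80.7% for Cebpb, 71.7% for Cebpg, 67.3% for Cebpa and 60.7% for Ddit3, against a median of 52.7% over all windows.

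The deposited values are log2 robust multiarray averages, and 23410 probe sets with an annotated gene were tested with limma, with calls below 0.05 after Benjamini-Hochberg adjustment over all of them. Array medians lay between 6.78 and 6.86. Srf was below every heterozygous array on all mutant arrays, at 8.90 ± 0.089 in mutant controls and 9.57 ± 0.041 in heterozygous controls (log2, SD, n = 3 each). Of 8 neuronal and 5 astrocyte markers, none was called in SE, and neuronal markers averaged 12.50 to 12.54 over the arrays with SE and 12.52 to 12.59 over the heterozygous controls. The female transcript Xist exceeded 9 in 0 of 3 heterozygous mice with SE, 1 of 3 heterozygous controls, 1 of 3 injected mutants and 2 of 3 mutant controls. Tek, an endothelial receptor, was lower in SE by -0.45, a call lost in 3 of 20 alternatives. In this bulk tissue, a change in the number of cells of a type and a change in RNA per cell cannot be told apart.

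In SE, Cebpb rose, Cebpa and Cebpg fell, and Cebpd and Ddit3 passed no threshold. In heterozygous mice with SE against heterozygous controls, 1 of 5 members was called higher, as were 5.08% of all probe sets, and 2 of 5 were called lower, as were 6.93%. The groups did not overlap for 4 of 5 members, as for 30.4% of all probe sets. Over all probe sets 1190 were higher and 1623 lower, or 1422 higher and 1115 lower once each array was centred on its median, and the median log2 fold change of all was -0.026.

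Cebpb, the activity- and cytokine-inducible member, had levels of 8.69, 8.63 and 8.61 (log2) in heterozygous mice with SE, against 8.09, 7.87 and 7.93 in heterozygous controls. Every mouse with SE lay above every control, and the mice with SE differed little among themselves. The log2 fold change was 0.68, a 1.60-fold rise (standard error 0.07, 95% interval 0.53 to 0.83, adjusted p = 3.87e-05 from limma). By size of rise, Cebpb stood at place 288 of 23410 probe sets. The call held under all 21 alternative settings, with changes between 0.63 and 0.74.

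Cebpd, the other rapidly inducible member, had levels of 6.94, 6.69 and 6.85 in heterozygous mice with SE, against 6.50, 6.67 and 6.63 in heterozygous controls. The groups did not overlap, but the second mouse with SE was nearly level with the highest control. The log2 fold change of 0.23 (standard error 0.077, interval 0.059 to 0.39) was not called, with an adjusted p of 0.0823 from limma. Without that mouse the difference was 0.30, with an adjusted p of 0.0299 from limma, the only call when each of 12 arrays was left out in turn. With another array left out the difference went down to 0.17, and adjusted p values went up to 0.263 (limma). The whole level of Cebpd lay in the dimmer part of the arrays, below the median of 7.7 of all tested probe sets.

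Cebpa, the member of differentiation, had levels of 7.51, 7.61 and 7.53 in heterozygous mice with SE, against 7.79, 7.76 and 7.67 in heterozygous controls. All mice with SE lay below all controls, by a small margin at the nearest pair. The log2 fold change was -0.19, or 0.88-fold (standard error 0.052, interval -0.30 to -0.077, adjusted p = 0.032 from limma). This call was lost in 5 of 9 other settings and when 4 of 12 arrays were left out in turn, with adjusted p values from limma of up to 0.12, while the change stayed between -0.23 and -0.15. Cebpa is known from myeloid cells, and microglial markers were therefore set beside it. Of 7 microglial markers 2 were lower in SE, the fractalkine receptor Cx3cr1 by -0.19 (limma, adjusted p = 0.0264) and the purinergic receptor P2ry12 by -0.23 (limma, adjusted p = 0.027). These calls were lost in 7 and 9 of 21 alternatives. The mean of all 7 ranged over 8.52 to 8.58 in heterozygous mice with SE and 8.52 to 8.66 in heterozygous controls. The part of microglia in the fall of Cebpa was not tested.

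Cebpg, the member without a classical activation domain, had levels of 8.07, 8.03 and 8.02 in heterozygous mice with SE, against 8.27, 8.19 and 8.43 in heterozygous controls. The mice with SE were close to each other and below all controls, which were spread more widely. The log2 fold change was -0.26, or 0.84-fold (standard error 0.058, interval -0.38 to -0.13, adjusted p = 0.0107 from limma). It was called under all 21 alternative settings, with changes between -0.31 and -0.19.

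Ddit3, which encodes CHOP, had levels of 8.32, 8.34 and 8.35 in heterozygous mice with SE, against 8.24, 8.33 and 7.94 in heterozygous controls. The groups overlapped, and the third control was the lowest of all 12 arrays. The log2 fold change was 0.17 (standard error 0.084, interval -0.016 to 0.35), with an adjusted p of 0.259 from limma. Without that control the change was 0.054, and it ranged up to 0.25 with another array left out. Cebpe, a granulocyte member of the family outside the 5 genes, had levels of 6.32, 6.61 and 6.52 in heterozygous mice with SE, against 6.58, 6.50 and 6.50 in heterozygous controls, and its adjusted p was 0.821 (limma).

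**Figure D1:**
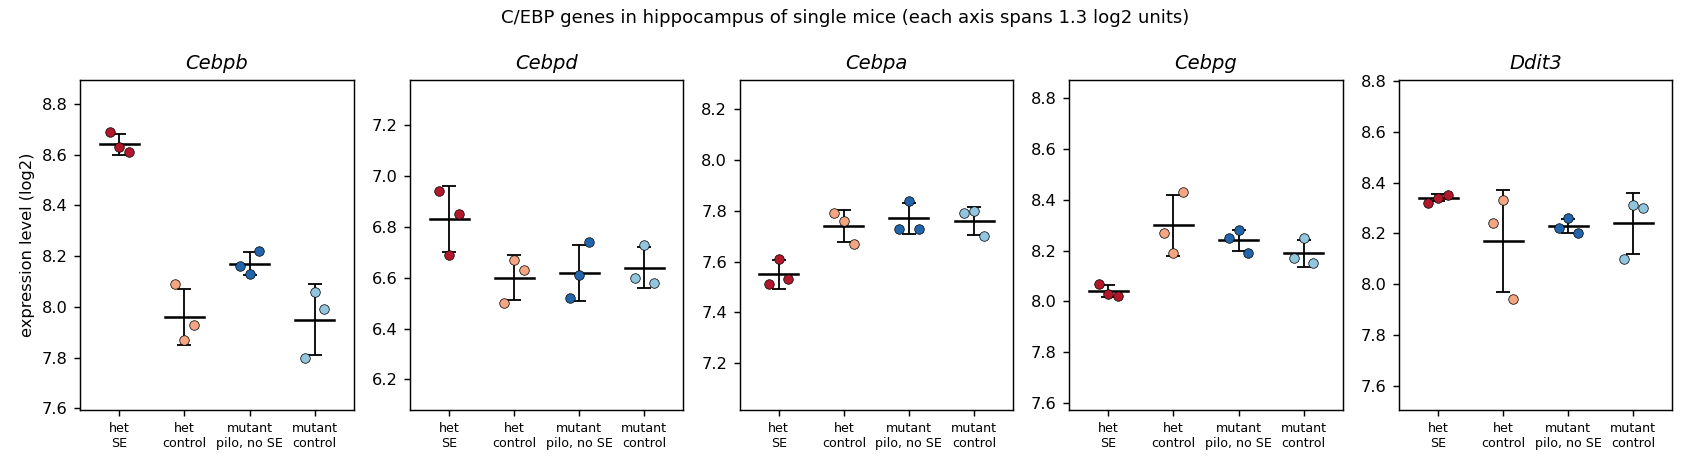
Expression levels (log2, vertical axes of equal span) of the 5 C/EBP genes on each of 12 arrays, with 1 point per mouse, the group mean as a horizontal line and the SD as an error bar (n = 3 per group). Cebpb lies between 8.61 and 8.69 in heterozygous mice with SE and at or below 8.22 in the other groups, and Cebpg and Cebpa are lowest in heterozygous mice with SE.

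In Srf mutants given pilocarpine, which did not reach SE, none of the 5 members was called against mutant controls, where 1.84% of all probe sets were called. Of the 5, 1 had an unadjusted p under 0.05 and 1 did not overlap between the groups, as 18.4% of all probe sets did not; both were Cebpb. Its levels were 8.16, 8.13 and 8.22 in injected mutants, against 7.80, 8.06 and 7.99 in mutant controls. All injected mutants lay above all mutant controls and below all heterozygous mice with SE. The log2 fold change was 0.21, or 1.16-fold (standard error 0.07, interval 0.062 to 0.37), and its adjusted p was 0.157 from limma. Cell type markers of these mutants had no call by limma, but some lay lower and some higher than in mutant controls. Tek differed by -0.42 and P2ry12 by -0.20, both without overlap. The microglial Csf1r differed by 0.20 and the astrocyte marker Slc1a3 by 0.10, also without overlap. The same held for the microglial Aif1, the oligodendrocyte Mbp and the endothelial Flt1, each at -0.13. It also held for the neuronal Gad1 at 0.08 and the leukocyte marker Mpo at 0.11. An unadjusted p under 0.05 in either direction was found for 1 of 4 endothelial, 3 of 7 microglial, 1 of 5 astrocyte and 2 of 3 oligodendrocyte markers. Csf1r and Slc1a3 were the higher ones among these. The share with such a p over all probe sets was not counted. The mean of the 3 oligodendrocyte markers ranged over 10.94 to 11.44 in injected mutants, lowest in the first, and 11.47 to 11.49 in mutant controls. The part of such cells in the changes of injected mutants was not tested.

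The other members lay close to their controls in the mutants. Cebpd had levels of 6.52, 6.61 and 6.74 in injected mutants, against 6.60, 6.73 and 6.58 in mutant controls, and its change was -0.011 (interval -0.18 to 0.16). Cebpa had levels of 7.73, 7.84 and 7.73 in injected mutants, against 7.79, 7.80 and 7.70 in mutant controls, a change of 0.0055 (interval -0.11 to 0.12). For both genes the groups overlapped.
Cebpg had levels of 8.25, 8.28 and 8.19 in injected mutants, against 8.17, 8.25 and 8.15 in mutant controls, a change of 0.05 (interval -0.076 to 0.18). Ddit3 had levels of 8.22, 8.26 and 8.20 in injected mutants, against 8.10, 8.31 and 8.30 in mutant controls, a change of -0.0091 (interval -0.19 to 0.17).

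Whether the response differed between mutants without SE and heterozygous mice with SE was tested as the change in mutants minus the change in heterozygous mice. Genotype, SE and harvest time cannot be told apart in this difference. The contrast called 1 of 5 members, and 3.59% of all probe sets. Cebpb responded less in the mutants, by -0.46 (standard error 0.099, interval -0.68 to -0.25, adjusted p = 0.0218 from limma). That call was lost with the animal number as a block, at an adjusted p of 0.0509 (limma), and when any of 5 arrays was left out, at up to 0.0647 (limma), with differences between -0.54 and -0.41. Cebpg differed by 0.31 (interval 0.13 to 0.49) at an adjusted p of 0.063 from limma, which fell below the threshold in 3 of 20 alternatives. For Cebpd the difference was -0.24 (interval -0.48 to -0.00084), for Cebpa 0.20 and for Ddit3 -0.18, with adjusted p values from limma of 0.314, 0.198 and 0.54. For Ddit3 it was -0.063 without the third heterozygous control.

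Without pilocarpine, loss of the second Srf allele went with no called member. Between mutant controls and heterozygous controls 0 of 5 members were called and 0 had an unadjusted p under 0.05, where limma called 0.120% of all probe sets. The log2 fold changes were -0.011 for Cebpb, 0.034 for Cebpd, 0.021 for Cebpa, -0.11 for Cebpg and 0.07 for Ddit3. The smallest adjusted p of these was 0.646 (limma), for Cebpg.

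Set directly against heterozygous mice with SE, injected mutants had 3 of 5 members called, where 10.1% of all probe sets were called. These arrays are the same as in the comparisons above, so that the values are no further evidence. Cebpb was lower in the mutants by -0.48 (interval -0.63 to -0.32, adjusted p = 0.000897 from limma), and Cebpa was higher by 0.22 (interval 0.10 to 0.33, adjusted p = 0.0188 from limma). Cebpg was higher by 0.20 (interval 0.077 to 0.33, adjusted p = 0.0443 from limma), a call that 13 of 21 alternatives lost. Cebpd differed by -0.20 and Ddit3 by -0.11, neither of which was called.
In the order of group means, heterozygous mice with SE were highest for Cebpb, followed by injected mutants at 8.17 ± 0.045 and then both control groups, at 7.96 ± 0.11 in heterozygous and 7.95 ± 0.14 in mutant mice, whose ranges overlapped. For Cebpd and Ddit3, heterozygous mice with SE were also highest, but overlapped both mutant groups for Cebpd and the heterozygous controls for Ddit3, and the other 3 groups overlapped each other. For Cebpa and Cebpg, heterozygous mice with SE were lowest, at 7.55 ± 0.057 and 8.04 ± 0.024 (SD, n = 3), and the other 3 groups overlapped.

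**Figure D2:**
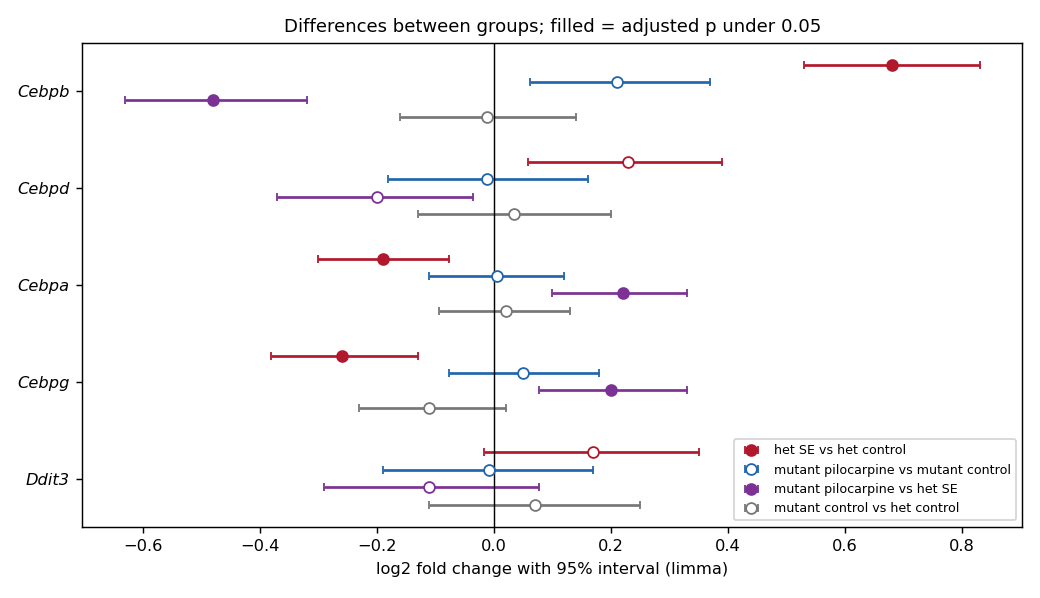
Log2 fold changes with 95% intervals (limma, horizontal axis) of the 5 C/EBP genes in 4 comparisons, with filled points for an adjusted p under 0.05. Cebpb reached 0.68 in heterozygous mice with SE and 0.21 in injected mutants, and no point of mutant controls against heterozygous controls is filled.

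Among 13 zipper proteins that pair with C/EBP proteins or belong to the same class, 5 rose and 3 fell in SE, with a median log2 fold change of 0.054. Over all probe sets 5.08% were called higher and 6.93% lower in SE, with a median of -0.026. This list and those below were chosen with earlier results of these data known, and no list was tested. Fos, a subunit of AP-1, rose by 5.34 (standard error 0.12). Atf3, a stress-induced repressor that pairs with CHOP, rose by 3.69 (standard error 0.13), and Nfil3, a repressor of the same DNA motif class, by 3.21 (standard error 0.12).
Jun, the partner of Fos, rose by 1.66 (standard error 0.056). Atf4, the inducer of Ddit3 and a partner of C/EBP proteins, was chosen after its values were seen. It had levels of 9.03, 9.05 and 9.09 in heterozygous mice with SE, against 8.29, 8.31 and 8.29 in heterozygous controls. The groups were far apart, at a log2 fold change of 0.76 (limma, standard error 0.037 and adjusted p = 3.16e-08), while Ddit3 itself passed no test.
The 3 that fell were Creb1 by 0.16 and Batf3 by 0.22, calls that most alternatives lost, and the circadian factor Dbp by 0.44.
In the injected mutants, where 1.84% of all probe sets were called, 4 of the 13 rose and 1 fell. Fos rose by 2.72, Nfil3 by 0.95, Jun by 0.29 and Atf4 by 0.17, and Dbp fell by 0.53. Atf3 changed by 0.46 at an adjusted p of 0.109 (limma). The call of Atf4 was lost in 17 of 21 alternatives and that of Jun in 7 of 21. The response was smaller in the mutants for 5 of the 13 and larger for 0, where the contrast called 3.59% of all probe sets. Fos differed by -2.62, Atf3 by -3.23, Nfil3 by -2.26, Jun by -1.37 and Atf4 by -0.59. All 5 also rose in SE, whose arrays enter the difference, so that their signs are no evidence of a common direction.

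The Tribbles pseudokinases, of which Trib1 and Trib2 direct the degradation of C/EBPα protein, moved differently from each other. Trib1 had levels of 9.43, 9.02 and 9.11 in heterozygous mice with SE, against 7.99, 7.97 and 8.02 in heterozygous controls, and rose by 1.19 (standard error 0.087). In injected mutants it had levels of 8.57, 8.60 and 8.55, against 8.17, 8.10 and 7.97 in mutant controls, and rose by 0.49 (standard error 0.087), a call lost without the first or without the second injected mutant, at an adjusted p of up to 0.0634 (limma). Its response was smaller in the mutants, by -0.70 (adjusted p = 0.00681 from limma).
Trib2 had levels of 9.64, 9.35 and 9.34 in heterozygous mice with SE, against 9.46, 9.57 and 9.52 in heterozygous controls. These overlapped, with a change of -0.07. Injected mutants had 10.24, 10.22 and 10.18, against 9.32, 9.48 and 9.67 in mutant controls. All injected mutants lay above all mutant controls. Trib2 rose in injected mutants by 0.73 (limma, standard error 0.089 and adjusted p = 0.00143), and its response was larger in the mutants by 0.80 (adjusted p = 0.00332 from limma). Trib3, a target of CHOP, was not called in either comparison.

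Of 20 known targets of ATF4 and CHOP, 4 rose and 1 fell in SE, and 15 were not called. Their median was -0.0051 against -0.026 over all probe sets, of which 5.08% rose and 6.93% fell. Ppp1r15a, whose product GADD34 lets eIF2α be dephosphorylated, had levels of 9.74, 9.97 and 9.92 in heterozygous mice with SE, against 7.09, 7.20 and 7.36 in heterozygous controls. All mice with SE were far above the controls, a rise of 2.66 (standard error 0.083). The stress-inducible Sesn2, a sestrin that restrains mTORC1, rose by 0.93 (standard error 0.068). Stc2, a secreted stanniocalcin, rose by 0.35, a call lost in 12 of 20 alternatives, and the amino acid transporter subunit Slc3a2, named after its values were seen, rose by 0.30.
Chac1, a glutathione-degrading enzyme induced by ATF4 and CHOP, fell by 0.32 (adjusted p = 0.00149 from limma). In injected mutants 0 of the 20 were called by limma and 3 had an unadjusted p under 0.05, with Ppp1r15a at 7.27, 7.44 and 7.50 in injected mutants against 7.10, 7.22 and 7.20 in mutant controls. The responses of Ppp1r15a and Sesn2 were smaller in the mutants, by -2.43 and -0.83. The 4 kinases of eIF2α, Eif2ak1, Eif2ak2, Eif2ak3 and Eif2ak4, had 0 calls by limma in SE and in injected mutants, and 0 had an unadjusted p under 0.05 in either.

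Of 15 chaperones and other genes of the endoplasmic reticulum, 1 rose and 0 fell in SE, where 5.08% of all probe sets rose and 6.93% fell. It was Herpud1, a factor of the degradation of misfolded proteins, by 0.19, and 7 of 21 alternatives lost this call. In injected mutants 9 of 15 had an unadjusted p under 0.05 from limma, with Herpud1 (-0.14) and Edem1 (-0.27) lower and the rest higher. That share was not counted over all probe sets, so that the number is no evidence of a common change. After adjustment 1 rose and 1 fell, where 1.84% of all probe sets were called. The median of the 15 was 0.20 against -0.0036 over all probe sets. Hsp90b1, the chaperone GRP94, had levels of 11.72, 11.87 and 11.49 in injected mutants, against 11.39, 10.97 and 11.25 in mutant controls. The groups did not overlap, but the nearest pair was close. It rose by 0.49 (adjusted p = 0.0326 from limma), a call lost in 10 of 21 alternatives. Edem1, a lectin of protein degradation, fell by 0.27, a call lost in 5 of 21. Both genes were named after their values were seen.

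**Figure D3:**
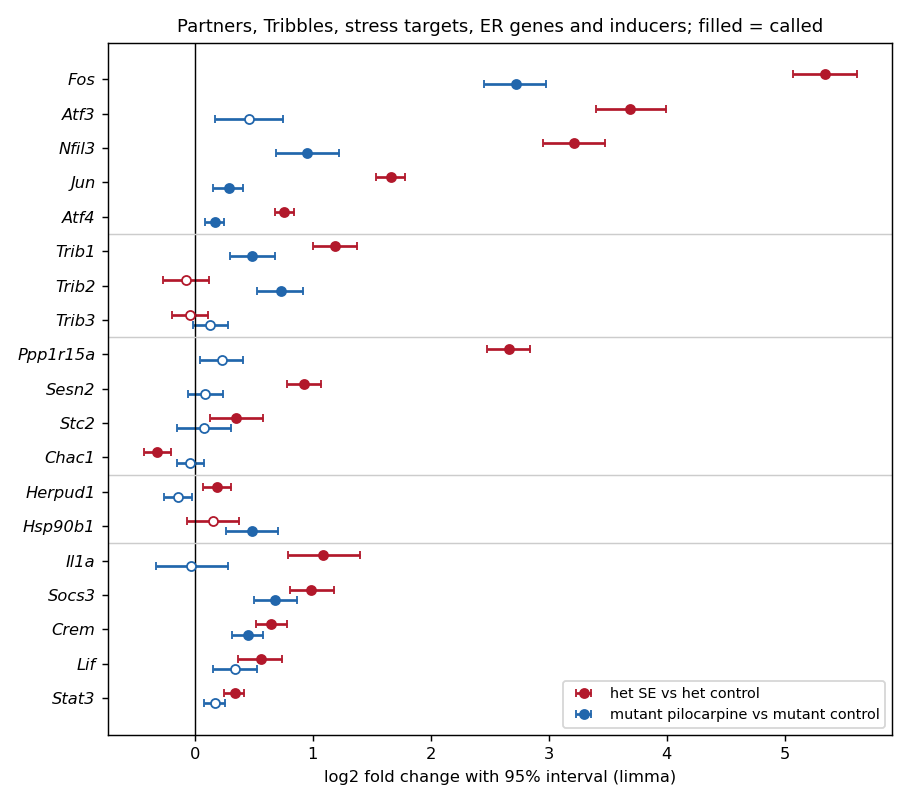
Log2 fold changes with 95% intervals (limma, horizontal axis) in heterozygous mice with SE and in injected Srf mutants, each against its controls. Shown are zipper partners, Tribbles pseudokinases, ATF4 and CHOP targets, genes of the endoplasmic reticulum, and upstream signals with the feedback inhibitor Socs3. Filled points have an adjusted p under 0.05; Fos reached 5.34 and 2.72, and Trib2 is filled only for the mutants, at 0.73.

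A list of signals known to induce Cebpb and Cebpd also held genes of their pathways, among them an inhibitor. Of its 20 genes 19 were measured, of which 7 rose and 1 fell in SE. The 1 that fell was Creb1, by 0.16, already counted among the zipper proteins, and most alternatives lost its call. The median of the list was 0.12 against -0.026 over all probe sets, of which 5.08% rose and 6.93% fell. Il1a, the cytokine interleukin 1α, had levels of 5.84, 6.05 and 6.46 in heterozygous mice with SE, against 5.20, 4.98 and 4.89 in heterozygous controls, all in the dim range of the arrays. The mice with SE lay above the controls, a rise of 1.09 (standard error 0.14). In the mutants it differed by -0.027, and its response was smaller there by -1.12 (adjusted p = 0.00675 from limma).
Socs3, which is on the list though it is a feedback inhibitor of STAT3 signalling, rose by 0.99 in SE (standard error 0.085). It rose by 0.68 in injected mutants (standard error 0.085). Crem, a cAMP-responsive factor, rose by 0.65 in SE and by 0.45 in injected mutants. Lif, a cytokine of the interleukin 6 family, rose by 0.56 in SE and changed by 0.34 in injected mutants, at an adjusted p of 0.0682 (limma). Stat3 itself, named after its values were seen, rose by 0.34 in SE and changed by 0.17 in injected mutants, at an adjusted p of 0.0628 (limma).

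Of 19 measured genes of inflammation that C/EBP proteins are known to regulate, 6 rose and 0 fell in SE. Their median was 0.15 against -0.026 over all probe sets, of which 5.08% rose and 6.93% fell. The 6 were led by Ptgs2, which encodes cyclooxygenase 2, at 2.56 (standard error 0.085), and by the chemokines Ccl3 at 2.17 (standard error 0.14) and Ccl2 at 1.43 (standard error 0.16). Cd14, a receptor of bacterial lipopolysaccharide, rose by 0.72 (standard error 0.086). In injected mutants, where 1.84% of all probe sets were called, 2 rose, Ccl2 by 1.91 (standard error 0.16) and Ptgs2 by 0.62 (standard error 0.085).
The response was smaller in mutants for Ccl3 by -2.06, for Ptgs2 by -1.94 and for Cd14 by -0.50, the last a call lost in 12 of 19 alternatives. For Ccl2 the difference of 0.48 was not called (adjusted p = 0.344 from limma). Of 7 blood leukocyte markers 0 were called by limma in SE and 1 had an unadjusted p under 0.05, and their mean lay between 5.76 and 5.82 in heterozygous mice with SE and between 5.78 and 5.87 in heterozygous controls.

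Glucocorticoids also induce Cebpb and Cebpd, and of 13 measured glucocorticoid-responsive genes 8 rose and 0 fell in SE. Their median was 0.17 against -0.026 over all probe sets, of which 5.08% rose and 6.93% fell. The largest changes were those of the phosphatase gene Dusp1 at 3.50, the receptor feedback inhibitor Errfi1 at 1.93, the clock gene Per1 at 1.78 and the kinase gene Sgk1 at 1.06. Several of these are also induced by neuronal activity, and which signal moved them was not tested. In injected mutants, where 1.84% of all probe sets were called, 3 rose, Dusp1 by 1.35, Errfi1 by 0.69 and Per1 by 0.67. Of the responses, 4 were smaller there than in heterozygous mice, where the contrast called 3.59% of all probe sets. The same list was set side by side between the controls, without a test of the list. In mutant controls against heterozygous controls 7 of 13 had an unadjusted p under 0.05 from limma, a share not counted over all probe sets. The median was 0.22 against -0.0071 over all probe sets. Of the 13, 1 was called, Zbtb16 at 0.33 (adjusted p = 0.0387 from limma), and this call was not checked under the alternatives. Dusp1 was at 0.33, Sgk1 at 0.26, Per1 at 0.24 and Errfi1 at 0.11 between the controls, all uncalled. These 4 were named for their change in SE, and the unadjusted p of Sgk1 and Errfi1 was above 0.05 (limma). Plin4 at 0.57 and Klf9 at 0.19, also uncalled, had an unadjusted p below 0.05 (limma). The part of this baseline in the smaller responses was not tested.

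Genes whose levels ran most nearly parallel to a called member were sought over the 12 arrays among 14389 genes with a mean of at least 6 (log2), as a description, since the arrays share their groups and any gene that moves in SE comes close to any other. Nearest to Cebpb were Egr1 and Cenpa (Pearson r = 0.976 each), Pim1 and Gm13889 (0.975 each) and Egr3 (0.971). Egr1, an early growth response factor, had levels of 12.06, 12.05 and 12.05 in heterozygous mice with SE, 9.86, 9.69 and 9.90 in heterozygous controls, 10.36, 10.37 and 10.39 in injected mutants and 9.56, 9.75 and 9.75 in mutant controls. Like Cebpb, it was highest in SE and intermediate in injected mutants.
Nearest to Cebpa were Pde10a (r = 0.948), P3h1 (0.942), Arid2 (0.930), Zfp212 (0.922) and Med18 (0.913). Nearest to Cebpg were Twistnb (0.908), Fam78b (0.907), Mon1b (0.904), 4922502B01Rik (0.902) and Ercc6 (0.896). Among the members, Cebpb had an r of -0.792 with Cebpa, -0.704 with Cebpg, 0.685 with Cebpd and 0.532 with Ddit3.

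**Figure D4:**
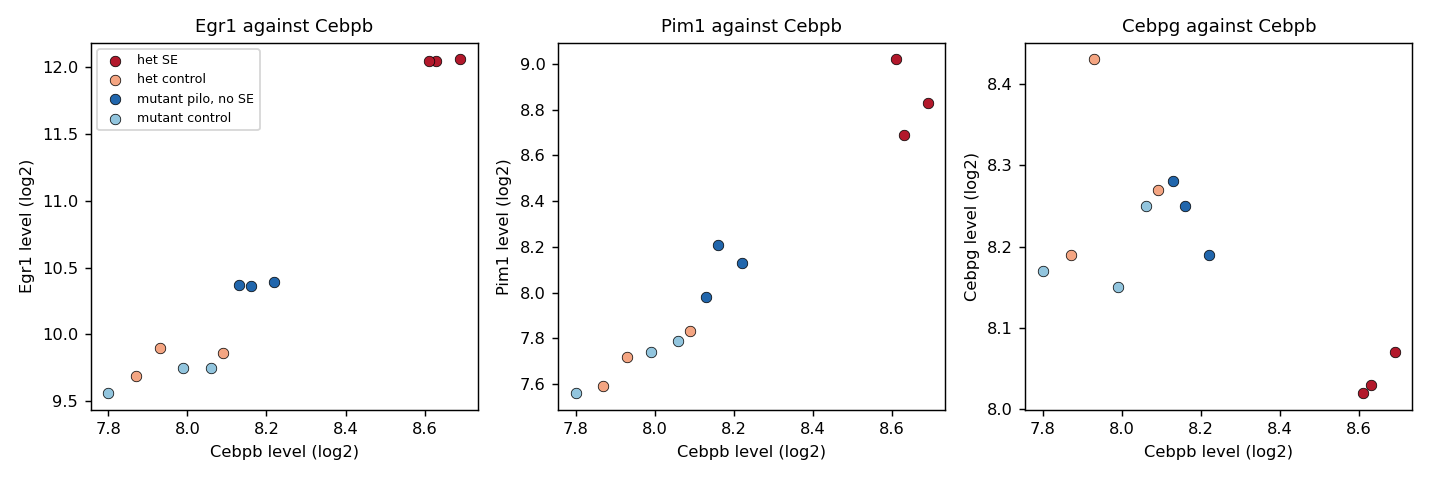
Levels (log2) of Egr1, Pim1 and Cebpg (vertical axes) against the level of Cebpb (log2, horizontal axis), with 1 point per array, coloured by group. The 3 heterozygous mice with SE form a separate set at the right of each plot, so that the relation rests largely on that group.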

How the data were processed

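RNA was from hippocampus of 12 single mice in 4 groups of 3. The deposited log2 values are robust multiarray averages, which the authors made from the array scans in Affymetrix Expression Console and which include background correction, quantile normalization and a summary of probes to probe sets. Of 35556 probe sets, 23410 have a gene in the platform annotation (21789 with 1 gene, 1621 with several) and 12146 have none. Of the 1-gene probe sets, 21698 were found by Entrez identifier in the GRCm38.p6 gene table, where 0 symbols differed. The number of arrays limits the precision.

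limma 3.58.1 in R 4.3.3 (lmFit, eBayes) was fitted to the 23410 with a mean per group and no block, with Benjamini-Hochberg adjustment and a threshold of 0.05. An interaction contrast tested the difference between responses. Named were the 5 members, Cebpe, Srf, up to 4 genes per list with the largest change in SE, called genes of lists with under 3 calls, and the 5 genes most like each called member. Fold changes are differences of group means on the log2 scale; a fold is the antilog of one. The members and gene lists were chosen with earlier results of these data known; lists were described and not tested. Cebpz, Il1r1, C3, Cdkn1a, Ly6c2, Hba-a1 and Hbb-bs have no 1-gene probe set here. Alternatives changed the prior variance, the treatment of dim probe sets, the scaling of arrays, the groups fitted, weights, probe sets tested, a block by animal number and Xist as a covariate, and left out each array; an exact permutation test was added for each member. The code was tested on simulated data. Files were read in Python 3.11.15 (pandas 2.3.3), and plots drawn with matplotlib 3.10.9.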

Additional observations from a re-analysis of the deposited data

Results flagged for a closer look

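The response to pilocarpine differed between Srf mutants, which did not reach SE, and heterozygous mice, which did, for 1 member and 19 other named genes (limma, interaction contrast, mutant minus heterozygous response, log2). Genotype and SE cannot be told apart in these differences. Cebpb differed by -0.46 (adjusted p = 0.0218 from limma). Of the zipper partners, Atf3 differed by -3.23, Fos by -2.62, Nfil3 by -2.26, Jun by -1.37 and Atf4 by -0.59. Of the stress genes, Ppp1r15a differed by -2.43, Sesn2 by -0.83 and Herpud1 by -0.33. Of the inflammatory genes, Ccl3 differed by -2.06, Ptgs2 by -1.94, Il1a by -1.12 and Cd14 by -0.50. Of the glucocorticoid-responsive genes, Dusp1 differed by -2.15, Errfi1 by -1.24, Sgk1 by -1.13 and Per1 by -1.11. The targeted gene Srf differed by -0.66. Trib1 differed by -0.70, and Trib2 by 0.80. Most of these genes were named for a large change in heterozygous mice with SE, whose arrays enter the difference, so that their signs are in large part set by that choice and are no evidence of a common direction. Over all probe sets, 344 of 840 called differences were positive and 496 negative.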

How the results depend on the processing

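Cebpb and Cebpg in SE, and Cebpb in injected mutants against heterozygous mice with SE, were called under all 21 alternatives. No result changed direction among called values. Cebpa in SE lost its call with a trended and robust prior variance (-0.19, adjusted p = 0.0646), median centring (-0.16, 0.0926), a repeated quantile normalization (-0.15, 0.0955), the compared groups only (-0.19, 0.0559) and all probe sets (-0.19, 0.0532). It also lost it without heterozygous control 1 or 2 or heterozygous SE mouse 1 or 3, and ranged from -0.23 to -0.17 with any array left out. Cebpd in SE gained a call with median centring (0.26, 0.0419), array weights (0.24, 0.0331) and without SE mouse 2, over 0.17 to 0.30. It had no value with dim probe sets left out.

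In the interaction, Cebpb lost its call without mutant control 2, injected mutant 1 or 2, or heterozygous control 2 or 3, over -0.54 to -0.41. Cebpg gained one with dim probe sets left out (0.31, 0.0387), array weights (0.34, 0.0359) and without heterozygous control 2, over 0.24 to 0.36. For injected mutants against heterozygous mice with SE, Cebpa lost its call without injected mutant 2 or SE mouse 1 or 3, over 0.18 to 0.25. Cebpg lost it with the prior variance (0.20, 0.0642), median centring (0.19, 0.0717), repeated quantile normalization (0.18, 0.0733), all probe sets (0.20, 0.0734) and Xist as a covariate (0.19, 0.0782). It also lost it without mutant control 1, injected mutant 1 or 2, heterozygous control 1 or any SE mouse, over 0.18 to 0.23. Cebpd gained one with array weights (-0.25, 0.0288) and without SE mouse 2, over -0.27 to -0.15. The adjusted p values are those of limma.

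Animal numbers did not pair the samples: deviations of same-numbered arrays correlated between -0.312 and 0.145. With the replicate block, the Cebpb interaction (-0.46, adjusted p = 0.0509 from limma) and Cebpg between the injected groups (0.20, adjusted p = 0.0811 from limma) lost their calls, and 15 probe sets were called for genotype. With 3 arrays against 3, an exact two-sided permutation test cannot go below 0.1, and it gives 0.1 wherever the groups do not overlap. In SE it gave this for Cebpb (0.68), Cebpa (-0.19) and Cebpg (-0.26). Between the injected groups it gave this for Cebpb (-0.48), Cebpa (0.22) and Cebpg (0.20). The uncalled Cebpd in SE (0.23), Cebpb in injected mutants (0.21) and Ddit3 between the injected groups (-0.11) did not overlap either. The test therefore cannot set the called members apart.

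Counts of called probe sets in injected mutants, 430, became 688 without dim probe sets, 161 with the compared groups only, 246 with all probe sets and 162 to 448 with an array left out, the low values without mutant control 2 or injected mutant 1 or 2. For genotype, 28 became 9 with the compared groups only, 11 with all probe sets, 12 with Xist as a covariate and 8 to 47 with an array left out. The interaction's 840 ranged over 535 to 986, lowest without injected mutant 1 and next heterozygous control 3, and the 2367 between injected groups over 1547 to 2486, lowest without injected mutant 1. Calls of Cx3cr1 were lost in 7 of 21 alternatives and those of P2ry12 in 9 of 21. A member has no further probe set, so that this alternative gave none.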
